A study of Mus musculus with 24 samples.

Results

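The comparison of 8 h in 1 µM lactacystin with no treatment rested on 9 of the 24 arrays of the series, namely the 3 arrays titled as 8 h at the higher dose and all 6 arrays titled as controls, with every probe of the non-normalized signal table. Lactacystin is a microbial product that turns into a lactone in water and acylates the catalytic threonine of the 20S proteasome, so that marked proteins are no longer degraded. RNA came from primary cortical cultures of Swiss albino mouse fetuses taken at gestational day 15 or 16. At culture day 5 the drug, kept in dimethyl sulfoxide, was diluted to 1 µM in Neurobasal medium. The controls are labelled as having had no treatment, and the labels name neither a solvent nor a collection time for them, so drug, solvent and time in culture cannot be told apart. The arrays at 5 h and 15 h in 1 µM, 3 each, are used below only to place the 8 h values in time. Whether each array had a culture of its own is not stated, and p-values therefore measure only the spread between arrays, which may be technical.

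The proteasome removes misfolded and short-lived proteins that carry ubiquitin. When it is blocked, cells are known to raise translation of the factor ATF4 through phosphorylated eIF2α, to release the heat shock factor HSF1 from its chaperones, and to stabilise NRF1 and NRF2, which drive proteasome subunit genes and antioxidant genes. In cultured cortical neurons such a block is known to be followed by cell death.

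Labelled cRNA was hybridized to Illumina MouseRef-8 bead arrays on 3 slides, each with 1 array at 8 h and 2 controls. Position cannot be told apart from treatment, since all 8 h arrays occupied the same place on their slides. Signals titled 8 h replicate 1, 2 and 3 matched the scanner columns of slides 3, 1 and 2, which is not the numbering of the descriptions, and slides here follow the match. The median signal was 65.3 ± 8.16 at 8 h (n = 3) and 65.75 ± 8.14 in controls (SD, n = 6; exact permutation test, p = 0.976), and 11317 to 11965 probes were detected per 8 h array against 11377 to 12133 per control. Control 5, on slide 3, stood apart: it differed from controls 1 to 4 by 0.434 to 0.546 (root mean square of log2 differences). Controls 1 to 4 differed from each other by 0.288 to 0.401 and the 8 h arrays by 0.214 to 0.258. Control 6, also on slide 3, did so less clearly. It differed from controls 1 to 4 by 0.346 to 0.459, which overlaps the range among those 4, and from control 5 by 0.353. Where leaving out controls 5 and 6 changed a call or moved a value described here by over 1.5 times, both values are given. Markers of neurons were bright, and so were those of astrocytes and the oligodendrocyte lineage, so the cultures were not neurons alone.

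All values below are log2 normalized signals, and a change is the mean at 8 h minus the mean of the controls with its standard error. Where 3 values are given for the controls, they are the lowest, the median and the highest of the 6. A gene was called when limma's moderated test gave an adjusted p (Benjamini-Hochberg) below 0.05 over the 10940 genes tested. At 8 h, 4349 genes (39.8%) were called, 2188 higher (20.0%) and 2161 lower (19.8%). The changes were mostly small, with a median size of 0.514 among called genes, and 195 rises and 125 falls reached 2-fold. Of the called genes 97.9% had the same sign on all 3 slides. All 3 arrays at 8 h lay above all 6 controls for 16.1% of genes and below all of them for 14.5%, 30.6% together. The balance of rises and falls depended on the scaling: centring each array on its median gave 2269 higher and 1440 lower. Without controls 5 and 6 the counts were 2569 and 2628.

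Genes of the integrated stress response rose together. All 19 measured members, of 20 in a list of ATF4 and CHOP regulators and targets, were called higher, where 20.0% of all genes were, and their median change was 1.79 against -0.011 for all genes. The pseudokinase Trib3, an inhibitor of AKT and ATF4, had 9.82, 9.999 and 9.86 at 8 h, against 4.98 at lowest, 6.11 at the median and 7.36 at highest in controls. Treated and control arrays did not overlap, and the change was 3.70 ± 0.36, or 13.0-fold (adjusted p = 7.33e-08). Its 2 highest controls, 7.36 and 7.31, were controls 5 and 6, and within slide 3 the change was 2.49, against 3.88 on slide 1 and 4.72 on slide 2. Without these 2 controls it was 4.27. Atf3, a repressor of the ATF/CREB family that ATF4 induces, had 8.33, 8.36 and 8.24 at 8 h and 4.44, 4.60 and 5.09 as lowest, median and highest control. It was above background on all 3 arrays at 8 h but on 1 of the 6 controls, so its control level was mostly not measured, and its fitted change of 3.63 ± 0.14 (adjusted p = 8.10e-14) varied little between slides, 3.44 to 3.79.

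Both promoters are shown because they hold the letters of the composite C/EBP-ATF element, a motif known for ATF4. It was searched as TGATGNAA on both strands in the 300 bases from 250 before to 50 after each RefSeq start (GRCm38.p6), and capitals mark it as read on the gene's strand. The windows are chr2:152344011-152344310 on the minus strand for Trib3 and chr1:191183284-191183583 on the minus strand for Atf3.
Trib3: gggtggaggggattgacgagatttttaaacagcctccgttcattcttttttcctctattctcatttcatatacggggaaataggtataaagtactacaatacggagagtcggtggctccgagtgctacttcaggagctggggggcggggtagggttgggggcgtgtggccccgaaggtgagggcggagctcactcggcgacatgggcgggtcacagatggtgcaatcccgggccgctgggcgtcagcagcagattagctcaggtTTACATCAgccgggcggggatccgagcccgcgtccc
Atf3: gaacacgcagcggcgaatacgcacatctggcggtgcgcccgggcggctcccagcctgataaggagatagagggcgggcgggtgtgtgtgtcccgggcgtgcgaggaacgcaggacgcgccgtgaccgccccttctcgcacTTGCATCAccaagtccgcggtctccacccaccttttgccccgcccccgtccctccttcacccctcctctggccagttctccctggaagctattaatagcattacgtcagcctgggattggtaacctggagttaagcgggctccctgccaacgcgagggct
These letters were present in 8 of 18 list members with a promoter (44.4%: Atf3, Chac1, Fgf21, Herpud1, Jdp2, Nupr1, Trib3 and Vldlr), against 3.01% of the 7981 tested genes with a promoter and 4.51% of all 27025 genes in the table. A match describes the sequence and is not evidence of binding. Counting the gene's strand alone, 5.56% of the list had them, against 1.40% of tested genes.

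Of the 19 measured members 17 lay above every control on all 3 arrays at 8 h, as 16.1% of all genes did, among them those that follow. Chac1, which breaks down glutathione, had 12.75, 12.66 and 12.67 at 8 h, against 9.33, 9.92 and 11.45 as lowest, median and highest control. It rose by 2.53 ± 0.29 (adjusted p = 6.20e-07), by 3.25 within slide 2 and 1.60 within slide 3. Ddit3, which encodes CHOP, had 10.46, 10.45 and 10.52 at 8 h, against 7.65, 8.23 and 8.95 in controls, a change of 2.26 ± 0.18 (adjusted p = 5.57e-09). Ppp1r15a, the subunit that directs dephosphorylation of eIF2α, rose by 2.18 ± 0.19, and Eif4ebp1, which holds back cap-dependent translation, by 2.34 ± 0.22. Gdf15, a secreted stress hormone, had 7.96, 7.86 and 7.77 at 8 h and was above background on none of the 6 controls, so it was at least 6.96-fold higher (adjusted p = 8.10e-14). Nupr1, a small chromatin-associated stress protein, had 8.48, 8.56 and 8.62 at 8 h, against 4.77, 5.56 and 5.95 in controls, a change of 3.04 ± 0.18.

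Atf4 mRNA itself changed by less than the median of this list. It had 11.33, 11.14 and 10.95 at 8 h, against 8.94, 9.81 and 11.15 as lowest, median and highest control. Control 5 lay inside the 8 h range, so the groups overlapped; the change was 1.14 ± 0.32 (adjusted p = 6.52e-03) and was no longer called when only the 9 arrays entered the fit (adjusted p = 0.0525). Without controls 5 and 6 it was 1.60. Another Atf4 probe, detected on all 24 arrays, had 0.88 ± 0.31 (adjusted p = 0.0303 over all kept probes). The whole list stood lower on slide 3, where its median change was 1.33, against 2.11 on slide 1 and 2.12 on slide 2. The plot of signals on each array sets these members beside genes of the sections that follow.

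**Figure D1:**
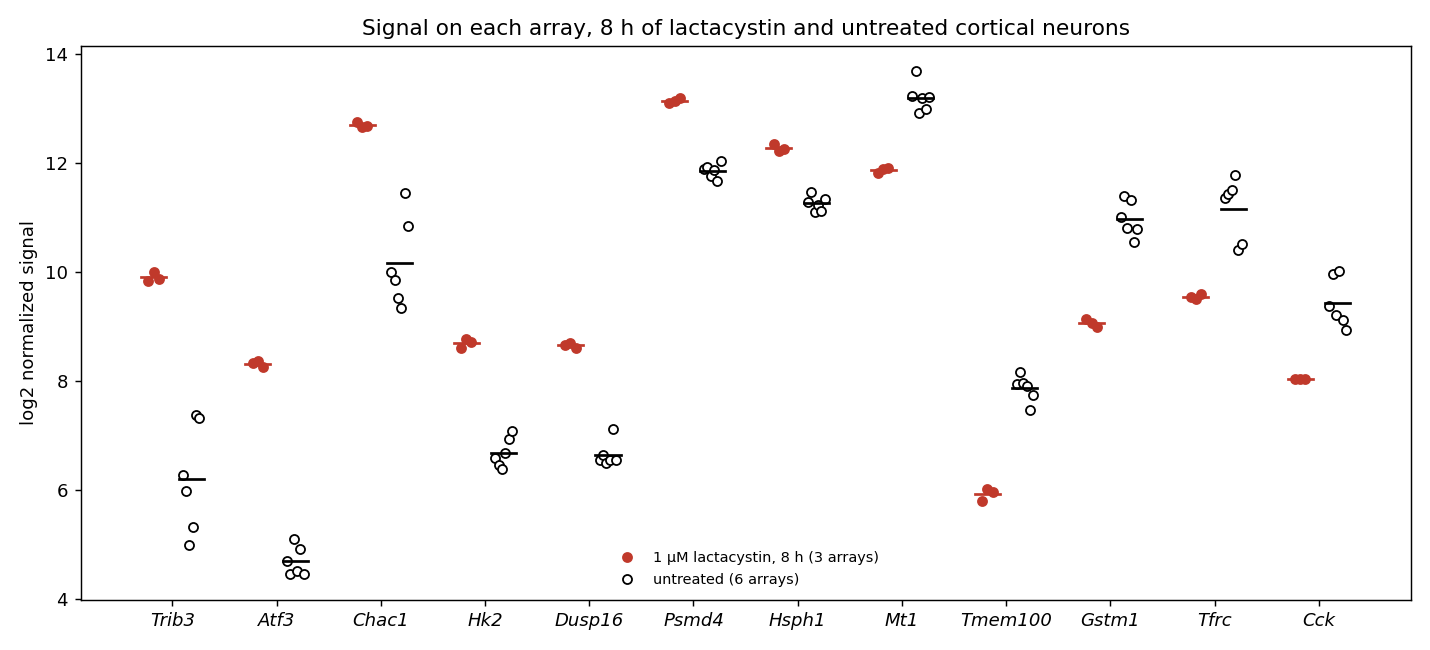
Log2 normalized signal of 12 genes on each of the 9 arrays, with filled points for 8 h in 1 µM lactacystin (3 arrays), open points for untreated cultures (6 arrays) and short lines for group means. The 3 treated arrays lie close together and outside the range of the controls for every gene drawn, as they did for 30.6% of all genes. The 12 genes were picked for display, and Atf4 and Fos, whose groups overlapped, are not drawn. The controls spread widely for Trib3 (4.98 to 7.36) and Chac1 (9.33 to 11.45).

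Amino acid supply and charging of tRNA rose with the ATF4 list. Of 19 measured genes of amino acid synthesis and transport 13 were called higher (68.4%) and none lower (median 0.716). Of 15 cytosolic aminoacyl tRNA synthetases 12 were higher (80.0%) and none lower (median 0.637), where 20.0% of all genes were higher. Slc6a9, the glycine transporter GLYT1, had 11.23, 11.11 and 11.28 at 8 h, against 9.39, 9.57 and 10.22 in controls, a change of 1.50 ± 0.13 (adjusted p = 1.87e-08). Shmt2, the mitochondrial serine hydroxymethyltransferase, rose by 1.51 ± 0.21, and Slc3a2, the heavy chain of several amino acid exchangers, by 1.47. Its light chain partner Slc7a11, which imports cystine, was above background on no control and was at least 1.69-fold higher (adjusted p = 2.98e-06). Cars, which charges cysteine tRNA, had 10.47, 10.43 and 10.29 at 8 h, against 8.80, 9.05 and 9.59 in controls, a rise of 1.25 ± 0.15 (adjusted p = 8.18e-07). Iars, for isoleucine, rose by 1.11. Wars, Kars and Dars did not pass, at 0.02, -0.04 and -0.46. Of the 13 measured mitochondrial synthetases 3 were higher and 1 lower (30.8% called, against 39.8% of all genes). The C/EBP-ATF letters stood in the promoters of 5 of 10 cytosolic synthetases (Aars, Gars, Iars, Tars and Yars) and of 5 of 15 amino acid genes (33.3%).

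Subunits of the proteasome itself rose. Of 17 measured subunits of the 19S particle, which recognises and unfolds substrates, 14 were called higher and none lower (median 0.896). That was 82.4% higher, against 20.0% of all genes. Of 13 subunits of the 20S core, which cuts substrates, 9 were higher (69.2%) and none lower (median 0.476). Psmd4, a ubiquitin receptor of the 19S particle, had 13.10, 13.14 and 13.19 at 8 h, against 11.67, 11.87 and 12.03 in controls. No control reached the 8 h range, and the change was 1.29 ± 0.09 (adjusted p = 3.00e-10). Adrm1, another ubiquitin receptor of the particle, had 10.32, 10.43 and 10.19 at 8 h, against 9.14, 9.30 and 9.38 in controls, a change of 1.03 ± 0.07. The ATPase Psmc2 rose by 1.33 ± 0.30, with wide spread at 8 h (7.69, 7.37 and 6.93). In the core, Psma1 rose by 0.86 ± 0.13 and Psmb2 by 0.82 ± 0.10, whereas Psmb5, the chymotrypsin-like subunit that lactacystin acylates, did not pass at 0.10. Psmd8 (-0.10) and Psmd6 (0.68) of the 19S particle did not pass.

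Activators, assembly factors and interferon-type subunits were called in both directions. Of 14 measured, 4 were called higher and 7 lower (median -0.245). In either direction that was 78.6%, against 39.8% of all genes (20.0% higher, 19.8% lower). Psme1 and Psme2, which form the 11S cap that interferon induces, had 9.94, 9.998 and 10.20 and 8.47, 8.48 and 8.63 at 8 h, against control medians of 10.83 and 9.20. All 3 arrays at 8 h lay below all controls for both, with changes of -0.72 ± 0.12 (adjusted p = 5.22e-05) and -0.70 ± 0.10 (adjusted p = 6.32e-06). Psmb10, a catalytic subunit of the immunoproteasome, fell by 0.53. Psmb9, another, was above background on no 8 h array and on 4 of 6 controls and was at least 1.07-fold lower (adjusted p = 0.0274), a call lost when any 1 of the 3 arrays at 8 h was left out (adjusted p from 0.0559 to 0.0851) or control 2 (adjusted p = 0.0575). Psmd10, the assembly chaperone gankyrin, fell by 0.59 with its brightest probe, and its other probes did not pass, at -0.41 and -0.39. The alternative cap Psme4 rose by 0.47 with its brightest probe (0.20, not called, with the other) and the assembly factor Psmd5 by 0.64. With only the 9 arrays in the fit, 7 members in place of 11 were called.

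Upstream of the proteasome the extraction machinery rose. Of 17 measured ubiquitin genes and ubiquitin receptors, 11 were called higher and 1 lower (Ubqln4, -0.33, not called without 8 h replicate 1, adjusted p = 0.0893), with a median of 0.400. Vcp, the p97 ATPase that pulls ubiquitinated proteins from membranes and complexes, had 13.14, 12.99 and 13.09 at 8 h, against 12.01, 12.20 and 12.30 in controls, a change of 0.87 ± 0.08 (adjusted p = 3.04e-08). Its cofactors Nploc4 and Ufd1l rose by 1.16 ± 0.14 and 0.97 ± 0.10, with no overlap of the groups. Sqstm1, the p62 receptor that links ubiquitin to autophagy, rose by 0.91 ± 0.07, with all 3 arrays at 8 h above all 6 controls. The polyubiquitin gene Ubb had -0.06, not called. Among 44 deubiquitinating enzymes 14 were higher and 3 lower, led by the nucleolar enzyme Usp36 at 1.20, and among 27 ubiquitin E1 and E2 enzymes 6 were higher and 2 lower. In either direction that was 38.6% and 29.6%, against 39.8% of all genes. Of 20 autophagy genes 7 rose, led by Atg14 (1.02) of the initiating lipid kinase complex, and 5 fell, led by Wipi1 (-0.80). Of 30 lysosome and V-ATPase genes 3 rose and 7 fell (33.3% called), among them the peptidase Tpp1 at -0.88.

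**Figure D2:**
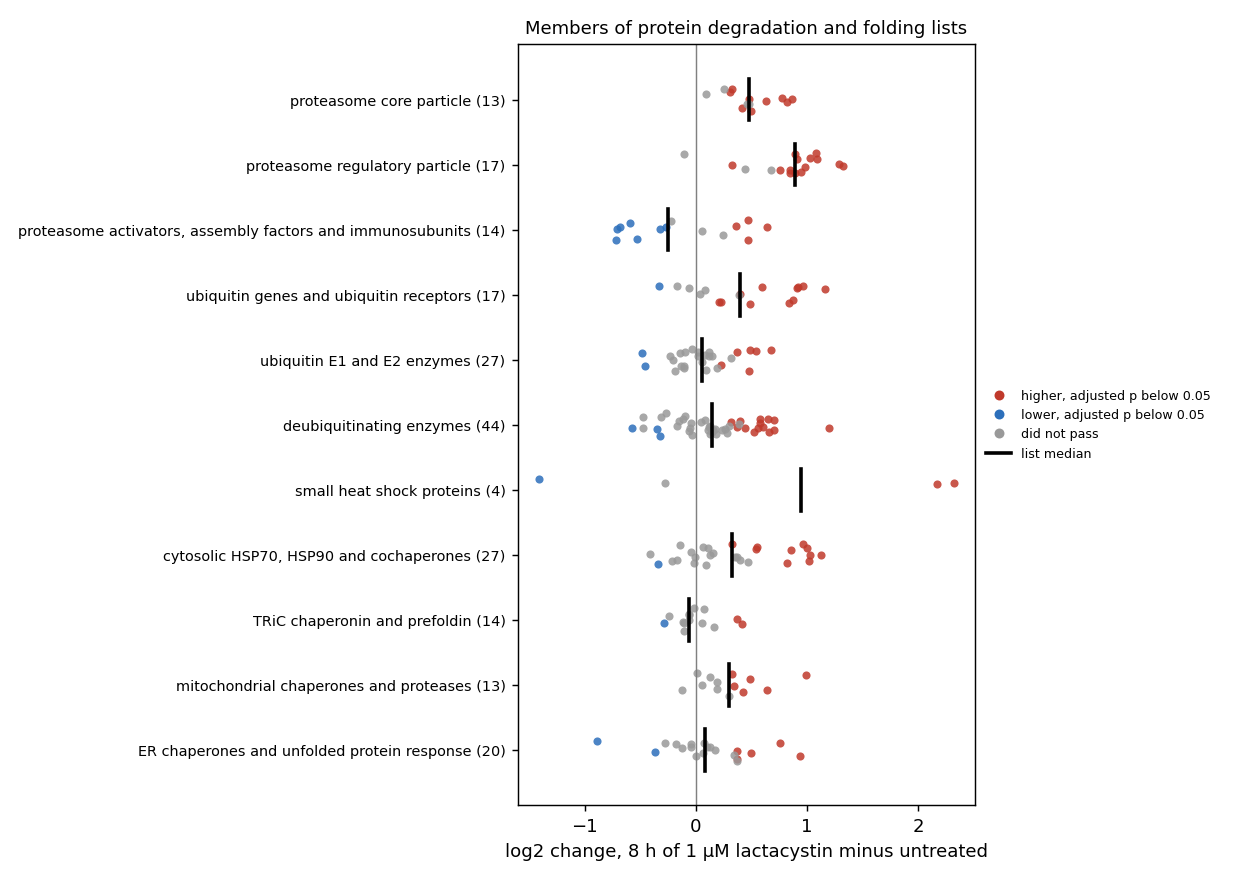
Log2 change at 8 h against untreated cultures for each measured member of 11 lists of protein degradation and folding, with the number measured in brackets, a black line for each list's median and colour for the call at an adjusted p below 0.05. The 19S list is centred at 0.896 and the 20S list at 0.476, while the list of activators and immunosubunits is centred at -0.245 with calls on both sides.

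Chaperones were changed in part at 8 h. Of 27 measured cytosolic HSP70, HSP90 and cochaperone genes 10 were called higher and 1 lower (median 0.330, and 0.194 without 8 h replicate 1). In either direction that was 40.7%, close to the 39.8% of all genes (20.0% higher, 19.8% lower). Hsph1, the HSP110 nucleotide exchange factor, had 12.35, 12.22 and 12.26 at 8 h, against 11.10, 11.25 and 11.46 in controls, and rose by 1.02 ± 0.09 (adjusted p = 8.26e-09). Dnajb1, the main cochaperone of stress-induced HSP70, had 12.35, 12.32 and 12.46 at 8 h, against 11.24, 11.33 and 11.47 in controls, and rose by 1.03 ± 0.07. Chordc1, an HSP90 cochaperone, had 11.10, 11.11 and 11.09 at 8 h, against 9.45, 10.07 and 10.27 in controls, and rose by 1.13 ± 0.13 (adjusted p = 4.47e-07). All 3 genes were above every control. Hsf1 rose by 0.97 ± 0.09. The constitutive Hspa8 (-0.01) and Hsp90aa1 (0.40) did not pass, and inducible Hspa1a and Hspa1b had no probe.

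The promoters of Chordc1 and Hsph1 are shown because they carry the letters of a run of 3 heat shock units, the motif known for HSF1 trimers. The run was searched as GAA, TTC and GAA with NN between each, on both strands, and capitals mark all matches, which overlap each other in Chordc1. The windows are chr9:18292017-18292316 on the plus strand and chr5:149636287-149636586 on the minus strand.
Chordc1: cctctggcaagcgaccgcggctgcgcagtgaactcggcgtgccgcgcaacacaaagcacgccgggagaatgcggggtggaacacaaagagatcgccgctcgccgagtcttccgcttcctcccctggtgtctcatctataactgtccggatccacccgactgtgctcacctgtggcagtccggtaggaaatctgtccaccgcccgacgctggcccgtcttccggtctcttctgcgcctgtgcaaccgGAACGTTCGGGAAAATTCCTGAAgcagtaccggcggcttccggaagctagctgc
Hsph1: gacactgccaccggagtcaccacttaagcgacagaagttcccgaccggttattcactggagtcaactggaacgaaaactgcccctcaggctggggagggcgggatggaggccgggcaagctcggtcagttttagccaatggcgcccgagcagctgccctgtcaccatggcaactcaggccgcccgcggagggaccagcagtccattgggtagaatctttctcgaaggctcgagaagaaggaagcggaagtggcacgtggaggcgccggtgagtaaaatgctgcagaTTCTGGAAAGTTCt
Of 22 list members with a promoter 3 held the run (13.6%: Chordc1, Hsph1 and Dnajb6), against 0.564% of tested genes, and none of the 3 small heat shock genes or 12 chaperonin genes with a promoter did. Dnajb6 did not pass, at -0.41. On the gene's strand alone the share was 9.09% of the list, against 0.351% of tested genes.

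Of 4 measured small heat shock genes 2 rose and 1 fell (75.0% called, against 39.8% of all genes). Hspb1, which binds unfolding proteins and actin, had 7.38, 7.44 and 7.45 at 8 h, against 4.99, 5.09 and 5.22 in controls, a change of 2.32 ± 0.16 (adjusted p = 4.51e-10). Hspb8, which works with BAG3 in selective autophagy, had 8.96, 9.10 and 8.94 at 8 h, against 6.36, 6.58 and 8.03, and rose by 2.17 ± 0.23. Bag3 itself rose by 0.86 ± 0.13. Cryab, αB-crystallin, which is abundant in glia, had 6.01, 6.19 and 6.24 at 8 h, against 6.68, 7.50 and 8.46 in controls. It lay below every control and fell by 1.41 ± 0.27 (adjusted p = 2.62e-04). Markers of astrocytes and oligodendrocytes fell in the same arrays, as given below, and their part in this fall was not tested.

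Chaperones of the organelles were called in part. Of 13 mitochondrial chaperones and proteases 6 rose and none fell, with Hspa9, the mitochondrial HSP70, at 10.89, 10.85 and 10.84 at 8 h, against 9.78, 9.86 and 9.96 in controls (0.99 ± 0.07). Of 20 endoplasmic reticulum chaperones and unfolded protein response genes 5 rose and 2 fell, 35.0% called against 39.8% of all genes. Xbp1, the factor spliced by IRE1, had 12.54, 12.39 and 12.37 at 8 h, against 11.27, 11.52 and 11.60 in controls, and rose by 0.93 ± 0.08 (adjusted p = 7.82e-09). The ubiquitin ligase Syvn1 of the same pathway rose by 0.76, whereas Hspa5, the reticulum's HSP70, had 0.37 ± 0.13 with overlapping groups and was not called without 8 h replicate 1 or 3 (adjusted p = 0.118 and 0.0578), and Sec61b of the import channel fell by 0.89. Of 14 subunits of the TRiC chaperonin and prefoldin 2 rose (Cct4, 0.42, and Cct3, 0.37) and 1 fell, 21.4% called.

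Antioxidant genes divided into rises and falls. Of 29 measured NRF2 targets 12 were called higher and 7 lower (65.5% called, against 39.8% of all genes). The median was 0.202, but 0.03 without 8 h replicate 3, 0.126 without control 3 and -0.026 within slide 1. Hmox1, which breaks down heme, had 10.79, 11.14 and 10.99 at 8 h, against 8.05, 8.84 and 9.20 in controls, and rose by 2.23 ± 0.20 (adjusted p = 3.08e-08). Osgin1, an oxidative stress growth inhibitor, had 7.84, 7.61 and 7.70 at 8 h, against 4.46, 5.23 and 5.70, and rose by 2.58 ± 0.17. Srxn1, the sulfiredoxin that repairs peroxiredoxins, had 10.07, 9.97 and 9.87 at 8 h, against 7.79, 8.64 and 9.49 in controls, and rose by 1.41 ± 0.21 (adjusted p = 1.47e-05). Mafg, the small MAF partner of NRF1 and NRF2, had 11.37, 11.49 and 11.44 at 8 h, against 10.02, 10.29 and 10.40, and rose by 1.18 ± 0.08 (adjusted p = 7.12e-10). The groups did not overlap for these 4 genes.

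Srxn1 and Mafg are shown because both rose and hold the core of the antioxidant response element, searched as TGACNNNGC on both strands. With the letters TCA in its open places this core contains the AP-1 site TGACTCA, so the motifs can overlap. The windows are chr2:152105274-152105573 on the plus strand and chr11:120633498-120633797 on the minus strand.
Srxn1: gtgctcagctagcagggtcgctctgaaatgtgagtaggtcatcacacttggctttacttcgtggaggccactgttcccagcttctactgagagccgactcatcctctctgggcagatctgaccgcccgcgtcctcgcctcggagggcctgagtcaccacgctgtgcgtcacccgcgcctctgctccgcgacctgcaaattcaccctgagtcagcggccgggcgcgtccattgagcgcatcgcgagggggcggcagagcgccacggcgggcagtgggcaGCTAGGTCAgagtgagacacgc
Mafg: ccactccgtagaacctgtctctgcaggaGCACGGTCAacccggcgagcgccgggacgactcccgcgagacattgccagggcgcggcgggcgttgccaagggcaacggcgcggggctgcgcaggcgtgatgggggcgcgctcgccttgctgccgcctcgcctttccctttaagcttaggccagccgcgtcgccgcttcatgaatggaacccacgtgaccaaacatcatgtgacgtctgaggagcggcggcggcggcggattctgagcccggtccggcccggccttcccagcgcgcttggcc
The core stood in 12 of 26 NRF2 targets with a promoter (46.2%), against 16.5% of tested genes. In the proteasome lists it stood in 3 of 14 subunits of the 19S particle (21.4%: Adrm1, Psmc6 and Psmd12) and 2 of 10 of the core (20.0%: Psmb5 and Psmb6), close to the share of all genes. On the gene's strand alone 23.1% of the NRF2 targets had it, against 8.87% of tested genes.

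The falls in the same list included glutathione transferases and carbonyl reductases. Gstm1, a glutathione transferase, had 9.13, 9.05 and 8.98 at 8 h, against 10.55, 10.90 and 11.39 in controls, and fell by 1.92 ± 0.13 (adjusted p = 5.51e-10). Its other probe had -0.14, and glutathione transferases of this class are near-identical in sequence, so which gene gave the signal is uncertain. Gsta4 fell by 1.18 ± 0.21 and the carbonyl reductase Cbr3 by 0.79. Metallothioneins, which bind zinc and copper, also fell: Mt1 had 11.82, 11.89 and 11.91 at 8 h, against 12.91, 13.20 and 13.68 in controls (-1.33 ± 0.12, adjusted p = 2.05e-08). Mt2 and Mt3 fell by 0.98 and 0.90. Tfrc, the transferrin receptor that imports iron, had 9.54, 9.50 and 9.59 at 8 h, against 10.39, 11.39 and 11.77 in controls, and fell by 1.62 ± 0.21, by 0.91 within slide 3 and 2.05 within slide 2.

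Among death and arrest genes, p53 targets rose more often than they fell, 9 against 1 of 22 (median 0.295), where 20.0% of all genes were higher and 19.8% lower. Gadd45a, a growth arrest and DNA damage gene, had 8.58, 8.83 and 8.63 at 8 h, against 6.77, 6.96 and 7.04 in controls, and rose by 1.75 ± 0.10 (adjusted p = 4.67e-11). Mdm2, the ubiquitin ligase of p53, had 11.37, 11.17 and 11.34 at 8 h, against 10.07, 10.22 and 10.46, and rose by 1.07 ± 0.08. Bbc3, the BH3-only protein PUMA, had 6.42, 5.89 and 6.12 at 8 h, against 5.07, 5.17 and 5.39 in controls, and rose by 0.94 ± 0.16 (adjusted p = 7.63e-05). None of the controls reached these levels. Bax (-0.02), Fas (-0.08) and Pmaip1 (0.31) did not pass, and Bad fell by 0.52. Of 15 caspase and apoptosome genes 3 rose, led by Casp1 at 0.68, and 3 fell, with the cytochrome c gene Cycs at -0.46. Of 10 antiapoptotic genes 3 rose (30.0%, against 20.0% of all genes), Nol3 (1.08), Mcl1 (0.65) and Birc2 (0.59), and none fell. The other probes of Nol3 had 0.32 and 0.21 and did not pass.

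AP-1 subunits and activity-linked genes differed between slides. Of 16 AP-1 and ATF subunits 8 were called higher and none lower, and 5 when 8 h replicate 2 was left out. Jun had 10.24, 10.15 and 10.23 at 8 h, against 7.74, 8.25 and 8.97 in controls, and rose by 1.89 ± 0.17 (adjusted p = 1.79e-08). Fos had 8.88, 8.81 and 8.70 at 8 h, against 5.95, 6.88 and 9.72. Control 5 lay above all 8 h arrays for Fos, so the groups overlapped. Its change of 1.57 ± 0.51 (adjusted p = 0.0171) was 2.27 on slide 1, 2.39 on slide 2 and 0.04 on slide 3, and the call was lost without 8 h replicate 1 or 2 (adjusted p = 0.057 and 0.0511). Of 23 immediate early genes 9 rose and 2 fell (47.8% called, against 39.8% of all genes). The list's median was 0.465 over all arrays but -0.027 within slide 3 and 0.236 without control 2. Without controls 5 and 6 the median was 0.721 and 16 members were called in place of 11. Ier3, a survival gene of early response, had 9.48, 9.58 and 9.62 at 8 h, against 6.46, 6.89 and 7.06 in controls, and rose by 2.77 ± 0.12 (adjusted p = 8.85e-13). Egr1 rose by 1.47 ± 0.17, whereas Fosb had 0.00, Bdnf -0.26 and Npas4 0.68, not called, with Fosb above background on 1 array at 8 h and 1 control. Without controls 5 and 6 the changes of Fos, Npas4 and Fosb were 2.37, 1.34 and 0.50, all called (adjusted p = 4.74e-08, 3.01e-06 and 0.022), and Bdnf had 0.29, not called. Dusp16, a phosphatase of JNK and p38, had 8.66, 8.69 and 8.60 at 8 h, against 6.49, 6.55 and 7.10 in controls, and rose by 2.01 ± 0.14 (adjusted p = 3.80e-10).

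**Figure D3:**
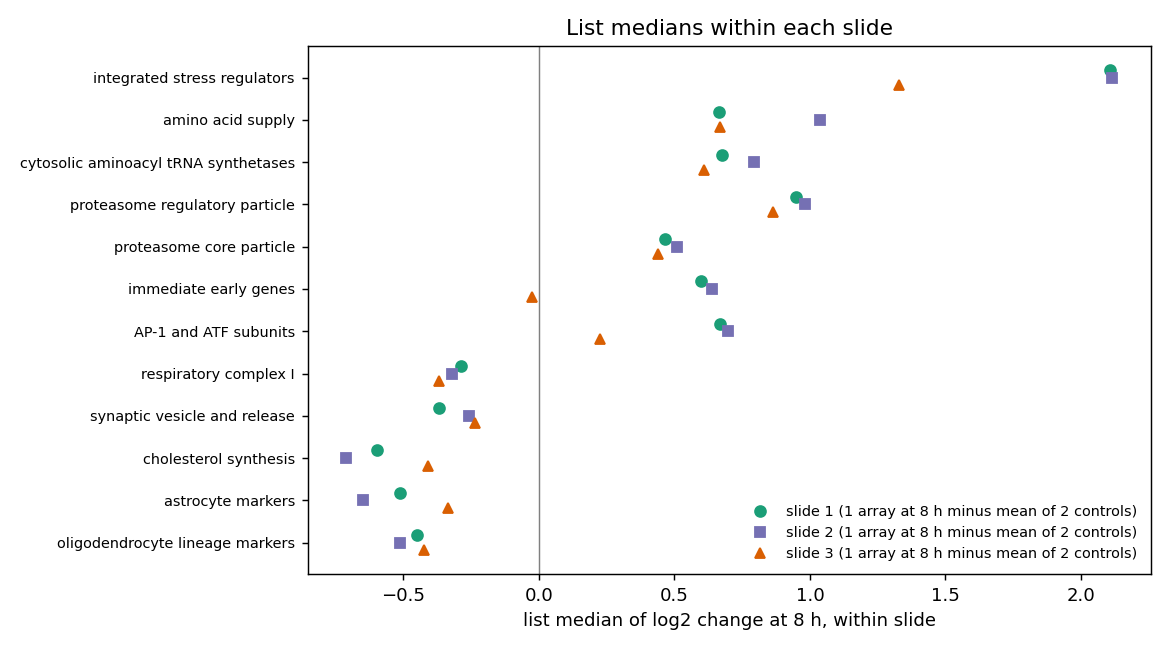
Median log2 change of 12 gene lists within each of the 3 slides, each point being 1 array at 8 h minus the mean of the 2 controls on its slide. Slide 3, which holds controls 5 and 6, is lowest for the integrated stress list (1.33 against 2.11 and 2.12) and for immediate early genes (-0.027), while the proteasome and complex I lists differ little between slides.

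Respiratory chain genes fell together at small size. Of 32 measured subunits of complex I, 18 were called lower and none higher (median -0.298). In complexes II and III 8 of 11 were lower (median -0.466), in complex IV 6 of 11 (median -0.251) and in the ATP synthase 10 of 15 (median -0.332), with none higher in any of them. Background calls in that direction were 19.8%. Ndufb3 and Ndufb4 of complex I fell by 0.85 and 0.78, Uqcr11 of complex III by 0.87 and Atp5k of the ATP synthase by 0.70. Cox7a2 of complex IV had 7.83, 7.76 and 7.40 at 8 h, against 8.29, 8.77 and 9.60 in controls, and fell by 1.17 ± 0.21 (adjusted p = 1.34e-04). Median centring left 4 called in complexes II and III and 3 in complex IV. Of the 71 mitochondrial ribosomal proteins 14 were higher and 16 lower, with Mrps30 at 0.75 and Mrpl34 at -1.18. That was 42.3% called, close to the 39.8% of all genes. Mrpl1 had 1.13 with its brightest probe and -0.15 and -0.03 with the others. Of the 71 cytosolic ribosomal proteins 4 rose and 3 fell (9.86% called, against 39.8% of all genes), and 4 and 3 were called in all without 8 h replicate 1 and 3. Of 58 translation factors 17 rose and 3 fell (34.5% called). Among them were 4 subunits of eIF2B, the exchange factor that phosphorylated eIF2 inhibits, with Eif2b4 at 0.86.

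In the glycolysis list more genes fell than rose, while Hk2 and Slc2a1 rose. Hk2, the inducible hexokinase, had 8.61, 8.76 and 8.70 at 8 h, against 6.38, 6.63 and 7.07 in controls, and rose by 2.01 ± 0.12 (adjusted p = 1.06e-10). Slc2a1, the glucose transporter GLUT1, had 9.82, 9.91 and 9.74 at 8 h, against 7.42, 7.78 and 8.68, and rose by 1.91 ± 0.19 (adjusted p = 9.77e-08). Ldha, lactate dehydrogenase A, had 11.04, 11.29 and 11.25 at 8 h, against 11.85, 12.01 and 12.12 in controls, and fell by 0.81 ± 0.08 (adjusted p = 4.89e-08). The groups did not overlap for these 3 genes. In the list of 21, 5 rose and 11 fell (76.2% called, against 39.8% of all genes), Hk1 and Tpi1 by 0.68 and 0.76. The fit of the 9 arrays alone called 9 of them.

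Genes of sterol synthesis fell. Of 19 measured, 13 were lower (68.4%, against 19.8% of all genes) and none higher (median -0.446). Nsdhl, a sterol dehydrogenase, had 10.59, 10.50 and 10.53 at 8 h, against 11.30, 11.69 and 11.88 in controls, and fell by 1.08 ± 0.11 (adjusted p = 9.77e-08). Hmgcs1, a synthase of the mevalonate pathway, fell by 0.43, while Insig1 (-0.22) and Lss (0.20) did not pass. Of 11 fatty acid genes 5 fell (45.5%), with Fasn at -0.63 and the lipogenic regulator Thrsp at -2.36 ± 0.27. The promoter of Hmgcs1 is shown as the 1 list member that holds the sterol element, searched as TCACNCCAC on both strands and marked in capitals at chr13:119690101-119690400, plus strand.
Hmgcs1: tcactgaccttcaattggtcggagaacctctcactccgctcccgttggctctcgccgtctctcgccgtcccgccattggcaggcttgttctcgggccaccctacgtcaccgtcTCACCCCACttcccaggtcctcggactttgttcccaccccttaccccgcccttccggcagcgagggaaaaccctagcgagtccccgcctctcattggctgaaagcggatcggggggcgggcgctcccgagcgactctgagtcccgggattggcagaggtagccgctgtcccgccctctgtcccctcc
That was 1 of 12 sterol genes with a promoter (8.33%), against 1.55% of tested genes, and none of the 8 fatty acid genes.

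Neuronal genes were lower at modest size. Of 11 general neuron markers 4 were called lower (36.4%, against 19.8% of all genes) and none higher. These were Gap43 of growth cones (-0.54), Stmn2 (-0.43), Tubb3 (-0.41) and Syt1 (-0.37). The summed level of all 11, in linear normalized signal, was 25479 to 26698 on the 8 h arrays, against 27824 to 33798 in controls, a range that did not overlap. Snap25 (0.05), Dcx (-0.00) and Nefm (0.14) did not pass. In bulk RNA, fewer cells of a type and less RNA per cell cannot be told apart. Of 27 synaptic vesicle and release genes 15 were lower and none higher (median -0.311), and of 24 receptor and scaffold genes 13 were lower and none higher (median -0.356). The postsynaptic scaffold Dlg4 fell by 0.99, the metabotropic receptor Grm5 by 0.97 and the AMPA subunit Gria1 by 0.79 ± 0.16. These counts were sensitive to the fit: median centring called 4 synaptic vesicle genes and 1 neuron marker, and the 9 arrays alone called 8 vesicle and 6 receptor genes.

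Some peptide and subtype marker genes were lower. Cck, the neuropeptide cholecystokinin, had 8.02, 8.03 and 8.03 at 8 h, against 8.93, 9.29 and 10.01 in controls, and fell by 1.41 ± 0.17 (adjusted p = 1.46e-06). Nts, also a secreted peptide, fell by 1.11, and Grp, above background on no 8 h array and on 5 of 6 controls, was at least 1.76-fold lower (adjusted p = 2.62e-03). In that list 7 of 18 genes fell and none rose (38.9% lower, against 19.8% of all genes). Of 16 projection neuron markers 7 were lower, among them the deep-layer factor Tbr1 (-0.91) and the vesicular transporter Slc17a7, which had 7.14, 7.29 and 6.95 at 8 h, against 7.36, 8.11 and 8.45 in controls. Slc17a7 changed by -0.98 on slide 1, -1.21 on slide 2 and -0.26 on slide 3. Rorb of layer 4 cells rose by 0.55. Of 11 interneuron markers 5 were lower (median -0.318, but -0.168 without control 5 and -0.036 without controls 5 and 6), with Calb2, calretinin, at 8.28, 8.28 and 8.33 at 8 h, against 8.97, 9.13 and 9.48 in controls (-0.91 ± 0.14). Voltage-gated channels were mixed, 5 higher and 9 lower of 42, with the sodium channel subunit Scn3b at -1.12 and Scn1a at 0.75. In either direction that was 33.3%, against 39.8% of all genes.

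Glial genes held several of the deepest falls. Of 15 measured astrocyte markers 8 were lower and 1 higher (median -0.442). In either direction that was 60.0%, against 39.8% of all genes (20.0% higher, 19.8% lower). The markers' summed level was 17515 to 18468 at 8 h, against 22474 to 32574 in controls. Aqp4, the water channel of astrocyte endfeet, had 7.43, 7.59 and 7.40 at 8 h, against 8.86, 9.21 and 10.53 in controls, and fell by 2.03 ± 0.24 (adjusted p = 1.18e-06). Cldn10, a claudin of astrocytes, had 7.93, 8.17 and 8.06 at 8 h, against 9.65, 9.75 and 10.61, and fell by 1.94 ± 0.17. Of its other probes one, detected on all 24 arrays, did not pass, at -0.05. Apoe, the lipid carrier, had 10.22, 10.36 and 10.17 at 8 h, against 11.14, 11.48 and 12.01 in controls, and fell by 1.30 ± 0.13. The groups did not overlap for these 3 genes. The markers did not move as one: the glutamate transporter Slc1a3 had 0.06 and Gfap -0.44, not called, and the glial factor Sox9 rose by 0.41.

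In the oligodendrocyte lineage 8 of 12 markers were lower (66.7%, against 19.8% of all genes) and none higher. Their summed level was 8929 to 9144 at 8 h, against 11886 to 14557 in controls. Pdgfra, the receptor of oligodendrocyte precursors, had 9.86, 9.76 and 9.97 at 8 h, against 10.44, 10.99 and 11.07, and fell by 1.01 ± 0.12 (adjusted p = 1.12e-06). Gpr17 of committed precursors fell by 0.96, while Mbp (-0.31) did not pass. Progenitor and Notch genes went both ways, 6 higher and 3 lower of 15 (60.0% called, against 39.8% of all genes). Hes1, the Notch target that holds progenitors undifferentiated, had 8.01, 8.33 and 8.37 at 8 h, against 6.55, 6.83 and 7.29 in controls, and rose by 1.36 ± 0.15 (adjusted p = 2.59e-07). Hey1 rose by 0.96 and the Notch ligand Dll1 fell by 0.70. Microglial markers were near background, with 5 of 12 under the detection filter and a summed level of 244 to 285 at 8 h, against 282 to 405 in controls, and 3 of 7 measured were lower. The 15 vascular and meningeal markers with a probe left 5 measured, 1 higher and 1 lower.

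**Figure D4:**
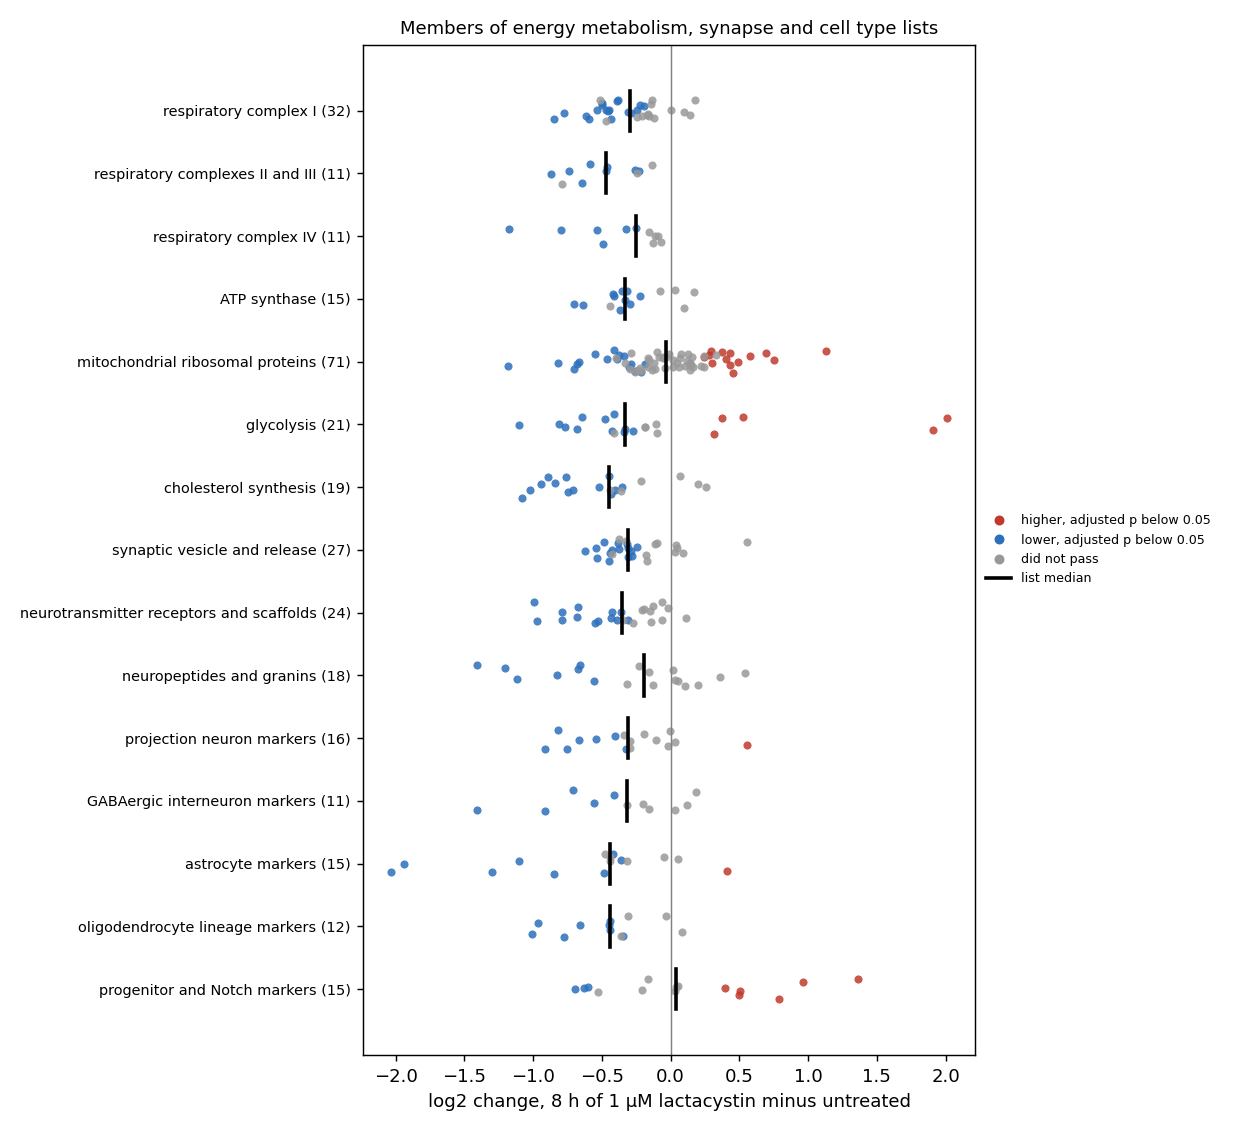
Log2 change at 8 h against untreated cultures for each measured member of 15 lists of energy metabolism, synapse and cell type genes, drawn with a black line for each list's median and colour for the call at an adjusted p below 0.05. Respiratory, sterol, synaptic and oligodendrocyte lists have no called rise, whereas Hk2 (2.01) and Slc2a1 (1.91) lie far to the right in the glycolysis list.

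Some of the 15 largest rises and falls were genes of other roles. Tnfrsf12a, the receptor of TWEAK, had 9.78, 9.82 and 9.84 at 8 h, against 6.33, 6.85 and 7.36 in controls, and rose by 2.95 ± 0.15 (adjusted p = 8.05e-12). Of 16 chemokine and NF-κB genes 5 rose, that receptor, Cxcl1 (0.98), Relb (0.93), Nfkb1 (0.75) and Nfkbie (0.44, not called without 8 h replicate 1, adjusted p = 0.144), and 2 fell. Prelp, a leucine-rich proteoglycan of matrix, had 5.69, 5.40 and 5.12 at 8 h, against 7.64, 8.40 and 8.90 in controls, and fell by 2.92 ± 0.21 (adjusted p = 7.57e-10). Tmem100, a membrane protein downstream of BMP receptors, had 5.80, 6.01 and 5.96 at 8 h, against 7.46, 7.92 and 8.16, and fell by 1.94 ± 0.12. The hydroxybutyrate dehydrogenase Bdh2 and the actin-associated Fam107a were above background on no 8 h array and on all 6 controls, and were at least 2.63-fold and 1.81-fold lower. Of 51 collagen and matrix genes 5 rose and 7 fell, 7 called in all when 8 h replicate 1 or 3 was left out. The called shares of the chemokine and matrix lists were 43.8% and 23.5%, against 39.8% of all genes.

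Against the arrays at 5 h the 8 h arrays showed 1913 genes called (17.5%), 1005 higher (9.19%) and 908 lower (8.30%). The count fell to 1246 without 8 h replicate 3 and to 1275 without 5 h replicate 2, and median centring gave 1243 higher and 325 lower. Atf3 was 1.70 ± 0.16 higher at 8 h than at 5 h, Gdf15 2.01 ± 0.14 and Hspb1 1.87 ± 0.18. Of the 17 subunits of the 19S particle 9 were higher at 8 h than at 5 h, of 15 cytosolic tRNA synthetases 8, and none of either list was lower. None of the respiratory and ATP synthase subunits had been called against controls at 5 h, where 10.2% of all genes were, 6.14% higher and 4.06% lower, and 8 h against 5 h gave 15 of 32 lower in complex I, 4 of 11 in complexes II and III, 4 of 11 in complex IV and 6 of 15 in the ATP synthase. Some activity-linked genes were the other way: Fosb was 2.17 ± 0.48 lower at 8 h than at 5 h (adjusted p = 3.84e-03), and Npas4 1.33 and Bdnf 1.30 lower. The list did not move as one, since of 23 immediate early genes 5 were called higher and 4 lower at 8 h against 5 h (median -0.158). Hes1 did not pass that test, at 0.03.

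Between 8 h and 15 h, 3609 genes differed (33.0%), 1663 higher (15.2%) and 1946 lower (17.8%) at 15 h. Median centring gave 818 higher and 2356 lower, with a median of all genes of -0.106. At 15 h against controls 5999 genes were called (54.8%), 27.2% higher and 27.7% lower, and that comparison shares its controls with the one at 8 h, as does the one at 5 h. Trib3 had changes from controls of 2.42, 3.70 and 4.33 at 5, 8 and 15 h, and 15 h did not differ from 8 h by the test (0.63, adjusted p = 0.27). Hspb1 had 0.45, 2.32 and 6.94, so that most of its rise came after 8 h (15 h minus 8 h, 4.62, adjusted p = 9.59e-14). Pdgfra had -0.63, -1.01 and -4.06, with a difference of -3.05 between 15 h and 8 h (adjusted p = 8.38e-13). Of the p53 targets 16 of 22 were higher at 15 h than at 8 h. Cryab, below all controls at 8 h, was 3.44 above their mean at 15 h, and the difference between 15 h and 8 h was 4.85 (adjusted p = 1.61e-10). Hes1 and Sox9, higher at 8 h, were -0.30 (not called) and -1.24 (called) at 15 h.

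**Figure D5:**
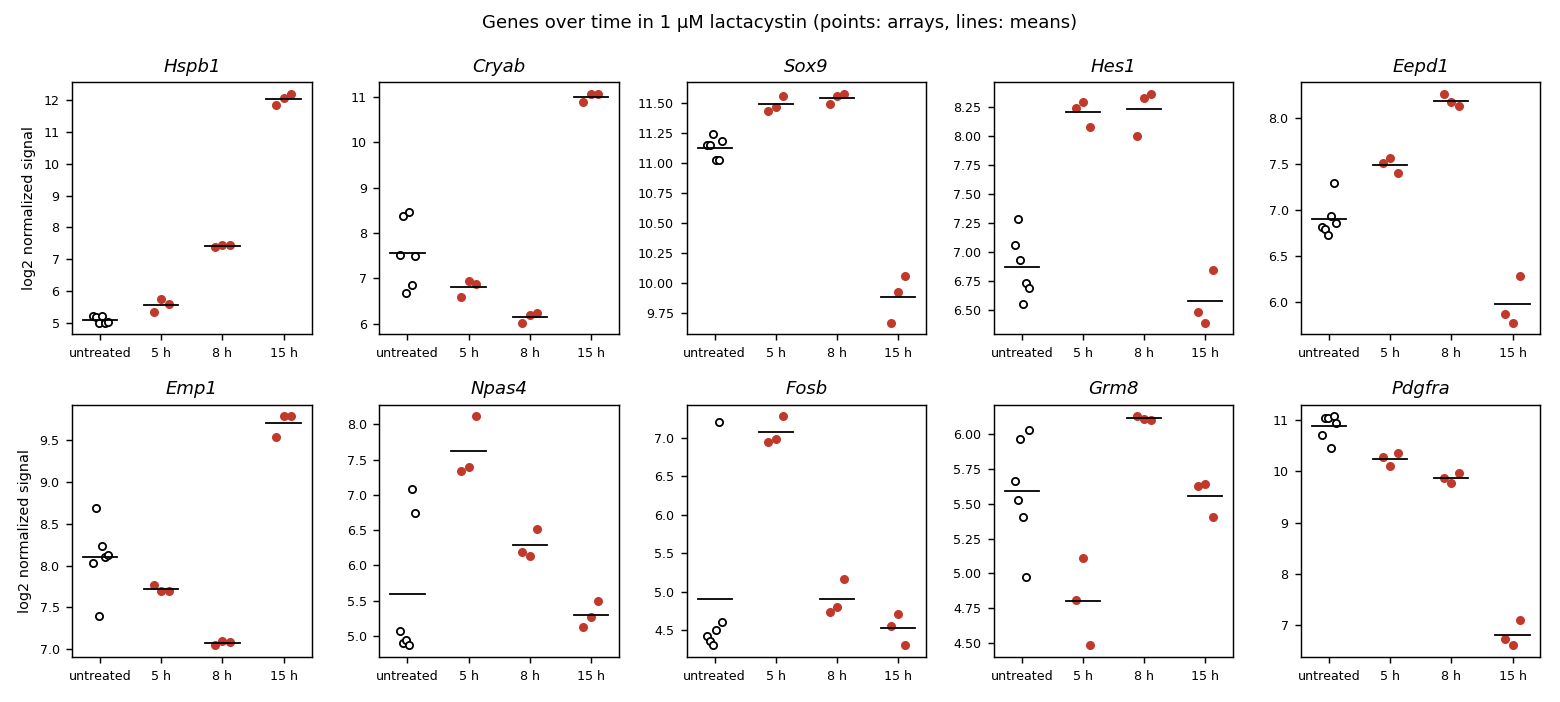
Log2 normalized signal of 10 genes in untreated cultures (open points, 6 arrays) and after 5, 8 and 15 h in 1 µM lactacystin (filled points, 3 arrays each), with lines for group means. The group means of Fosb and Npas4 are highest at 5 h and those of Eepd1 and Grm8 at 8 h, while Cryab and Emp1 are lowest at 8 h and highest at 15 h.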

How the data were processed

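Levels of mRNA were measured on 24 Illumina bead arrays, of which 3 at 8 h in 1 µM lactacystin and 6 controls make up the main comparison. The deposited non-normalized table gives a signal intensity per probe and array, made in BeadStudio without normalization per the file headers. The deposited scanner table gives the same intensities per gene with detection values from 0 to 1, a fraction from which the detection p was taken. The deposited normalized table gives the authors' ratio per probe, which equalled the signal over its array's median, divided by the mean of that over the controls, within 1.87e-05; its log2 served as an alternative. Array columns of the non-normalized and scanner tables were matched by value (99.92% of 14487 genes equal within 1e-06), which placed the treated arrays on other slides than their descriptions name. Only replicate numbers within a group were touched by this. Since detection is given per gene, each probe took the detection p that its signal had on the same array, by isotonic regression over genes with 1 probe.

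Intensities were background-corrected and quantile-normalized over all arrays with limma's neqc steps (offset 16), and log2 was taken. Probes detected at 0.01 on at least 3 arrays were kept (13553), and the probe with the highest mean stood for each of 10940 genes; 2083 genes had several probes, and 9 had probes called both ways. Of 24613 probes with values 20510 were named through RefSeq accessions, 3878 by the file's symbol and 225 had no symbol. All 7 groups entered 1 limma fit (lmFit, eBayes, limma 3.58.1, R 4.3.3), without a block, since the labels state no test and no pairing. The scripts were tested on simulated data before use.

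"At least" folds set the mean of the group detected on at least 1 array against that of the group detected on none, taking for each array of the second the higher of the gene's own value and the lowest value among detected probes. The number of arrays limits the precision. The comparison and the gene lists were chosen with earlier results of these data known. Genes are named by rule: the 15 largest rises and falls at 8 h, up to 6 called members of each list and 3 against its direction, fixed regulators, and the 10 largest differences in each direction from 5 h; other members named were chosen after their values were seen, and some genes that the rule names are not reported here. Promoters are RefSeq windows of GRCm38.p6; CCAAT boxes, in 43.3% of tested promoters, are not printed. Alternatives covered background, normalization, filters, probes, slide and replicate blocks, weights, variance models, the authors' ratios and leaving out arrays.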

Additional observations from a re-analysis of the deposited data

Results flagged for a closer look

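Single controls stood far from the other 5 in 16 of 329 named genes (4.86%; chance gives about 1 in 20), and 9 of the 16 were control 5 and 3 were control 6. Among stress and protein quality genes, Hspb8 was 8.03 in control 2 (control median 6.58), Fosb 7.20 in control 5 (4.46), Dusp16 7.10 in control 5 (6.55), Xbp1 11.27 in control 5 (11.52), Psma7 11.61 in control 5 (11.33), Josd1 10.96 in control 5 (10.46), Trp53 8.11 in control 5 (8.67) and Atg101 10.28 in control 6 (9.90). In the other lists, Atp6v0e was 10.29 in control 5 (10.07), Kcnab2 8.49 in control 5 (9.50), Id1 5.69 in control 5 (6.58), Elovl6 9.43 in control 6 (10.04), Col6a3 5.01 in control 6 (5.90), Atp5d 11.69 in control 3 (11.89), Rpl22 11.75 in control 1 (11.52) and Ugt8a 5.39 in control 4 (5.99). The cause was not tested.

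The 8 h and 5 h arrays differed by limma's test. The 10 largest differences upward, 8 h minus 5 h, were Gdf15 2.01, Hspb1 1.87, Atf3 1.70, Ctsc 1.69, Nupr1 1.44, 9430008C03Rik 1.41, Hspb8 1.38, Grm8 1.31, Tnfrsf12a 1.30 and Trib3 1.28. The 10 largest downward were Fosb -2.17, 5430433G21Rik -1.55, Adcyap1 -1.54, Slc40a1 -1.51, Prelp -1.48, Egr4 -1.45, Npas4 -1.33, Brinp1 -1.32, Bdnf -1.30 and 3300001A09Rik -1.29.

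Against the shared controls, 9 genes were called in opposite directions at 8 h and 5 h, and 8 h differed from 5 h by the test in each. Higher at 8 h and lower at 5 h were Grm8 (0.52 at 8 h, -0.79 at 5 h), Cep57l1 (0.25, -0.31), Map10 (0.26, -0.31), Larp6 (0.23, -0.28), Hibadh (0.22, -0.24) and Fbh1 (0.18, -0.23). Lower at 8 h and higher at 5 h were Brinp1 (-0.57, 0.75), Lsm4 (-0.35, 0.27) and Ccdc184 (-0.30, 0.37). These 8 h calls were weak: leaving out 1 array at 8 h ended the call for 8 of the 9, Lsm4 being the exception, and Lsm4 lost it under 1 other alternative (adjusted p = 0.148). Grm8 lost it without any of the 3 (adjusted p from 0.0509 to 0.0576) and Brinp1 likewise (from 0.0505 to 0.117). Without controls 5 and 6 Brinp1 was -0.40 and Ccdc184 -0.15, not called (adjusted p = 0.109 and 0.19).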

How the results depend on the processing

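The 4349 calls at 8 h against controls stayed within 1.5 times under every alternative run; their lower part was 1440 with median centring and 1428 with only the 9 arrays, and leaving out single arrays gave 3503 to 4773 in all, 1771 to 2368 higher and 1656 to 2405 lower. With the slide as a replicate block 4930 genes were called, and with the replicate number as a block 5280. No other array shares the numbers of controls 4, 5 and 6. With the number as a block these controls therefore added nothing to the changes or to the spread. In deviations from group means, same-numbered arrays at 8 h and in controls correlated at -0.009, 0.049 and 0.317, so the numbers did not pair these arrays throughout. Same-slide arrays at 8 h and in controls had -0.074 and 0.049 on slide 1, 0.317 and 0.288 on slide 2 and 0.215 and 0.183 on slide 3. Among treated groups, arrays of the same number shared a matched slide. The authors' ratios gave 2318 higher and 1775 lower, 56.6% higher against 50.3%. Calls of 8 h against 5 h varied more: 3301 (1743 higher, 1558 lower) with the number as a replicate block, 4215 (2165, 2050) with array weights and 2989 (1557, 1432) with a separate control variance. Their lower part was 325 with median centring, 1363 with only the arrays compared and 491 with the authors' ratios, and leaving out single arrays gave 1246 to 1351 in all, 625 to 748 higher and 583 to 645 lower. For 15 h against 8 h, array weights gave 5437 (2603 higher), median centring 818 higher and the authors' ratios 1004 higher; leaving out single arrays gave 2790 to 3081 in all, 1282 to 1439 higher and 1508 to 1713 lower.

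Among list medians more than 1 SD of the 3 slide values from 0, the sign turned for TRiC and prefoldin (0.076 with the number as a block, 0.037 with array weights, -0.109 to 0.020 when single arrays were left out, 0.019 without 8 h replicate 3 and 0.020 without control 5, 0.111 without controls 5 and 6, 0.042 within slide 1), for NRF2 targets (-0.026), antiapoptotic genes (0.020) and cell division (0.015) within slide 1, and for caspases (0.012) and immediate early genes (-0.027) within slide 3. Medians nearer 0 also turned within slides, such as voltage-gated channels (0.048, slide 3) and proapoptotic genes (-0.074, slide 1). Among named genes, Psmd9 (-0.034), Crem (-0.113), Slc2a3 (-0.003), Syn2 (0.020) and Cacna1d (0.038) turned within slide 3, and Brcc3 (0.095) and Mrpl1 (-0.034) with all probes tested. Of the other values for named genes 8709 counted as unchanged, 282 lost the call, 15 gained it and 192 moved. Called genes counted as unchanged when direction and call were kept, and uncalled genes when they stayed uncalled, in either direction. Within slides no call was made. There a value was unchanged within 1 SD of the main change, taking the larger SD of the 8 h arrays and the controls, and moved beyond it. Counting cell division genes as called gave 8 in the main fit, 0 with only the 9 arrays and 1 without 8 h replicate 1. The causes were not tested. Probes near background limit folds to bounds.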

Other observations

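Some genes had opposite calls at 8 h and 15 h against the shared controls, 69 lower and later higher, 97 higher and later lower, each with a called difference between 15 h and 8 h; those named here were chosen after their values were seen. Lower at 8 h were the membrane protein Emp1 (-1.02 at 8 h, 1.60 at 15 h) and the membrane-binding annexin Anxa2 (-0.90, 1.06), beside Cryab. Ugt1a7c, a glucuronosyltransferase whose exons other Ugt1a genes share, so that the source of its signal is uncertain, had -1.15 and 0.86. Higher at 8 h was Eepd1, an endonuclease family gene, with 1.28 at 8 h and -0.93 at 15 h.

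Cell division genes, which neurons do not use, were 1 higher and 7 lower of 23 at 8 h, with Rrm2 of nucleotide synthesis at -0.59 (-0.37 without controls 5 and 6, other probe -0.21, not called) and Mcm7 of the replicative helicase at 0.44 (other probe -0.02, not called, and adjusted p = 0.0501 and 0.0717 without 8 h replicate 1 and 2). Without 8 h replicate 1, 2 or 3 the called members were 1, 5 and 4. Tubulin and microtubule genes were 1 higher (Tubb6, 0.71, adjusted p = 0.0574 without 8 h replicate 2) and 7 lower of 22, among them Tuba1a at -0.63, and 5 were called in all without 8 h replicate 2. Splicing factors were 7 higher and 5 lower of 45. The called shares of the cell division, tubulin and splicing lists were 34.8%, 36.4% and 26.7%, against 39.8% of all genes.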
